A study of Mus musculus with 12 samples.

Results

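Genes with at least 2 captured promoters were compared promoter by promoter, in a Capture-C experiment on haematopoietic stem cells (HSCs) of the mouse. Promoters were assigned to the same gene when their gene names were equal after removal of an appended promoter number (as in Runx1_1), if they lay in the same capture batch and had at least 1 listed contact within their chromosome. This gave 749 of 3781 captured promoters. The first batch held 696 of them in 322 genes, of which 270 had 2 promoters and 52 had 3, which makes 426 pairs. The second batch held 53 promoters in 26 genes and 28 pairs. In that batch, 25 genes had 2 promoters and 1 gene had 3. The remaining promoters, 1243 (first batch) and 1761 (second), were the only ones of their gene with a listed contact within the chromosome in that batch. Promoters captured without any listed contact could not be counted, here or in the comparisons of contact numbers.

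Both populations came from B6129SF1 mice. Fetal liver HSCs were taken at embryonic day 14.5 and bone marrow HSCs from mice aged 6 to 8 weeks. In both cases cells negative for lineage markers and CD135 and positive for Sca1 and c-Kit were sorted, a gate that keeps multipotent progenitors beside stem cells. In Capture-C, cross-linked chromatin is cut with DpnII and ligated, and oligonucleotide probes pull out the ligation products of chosen promoter fragments. Each population had 4 libraries, 2 in each batch. The table holds a single pooled value for each population and batch. The spread between libraries is therefore unknown, and no test was possible. The 95% intervals given are exact and cover counting over pairs, bins or promoters only. They are too narrow, since the 3 pairs of a gene with 3 promoters share promoters. Where contacts are counted, a bin listed for several promoters of a gene enters once for each. Adjoining bins also enter as separate ones. By how much the intervals are too narrow was not tested. The series also has HPC7 cells, wild type or lacking TCF3, which were not analysed here.

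Alternative promoters start transcripts of the same gene at different places, so that the transcripts can differ in their first exon and be switched on in different cells. Blood regulators are textbook cases: Runx1, the RUNX factor needed for the emergence of HSCs, has a distal and a proximal promoter, and Igf2, the fetal growth factor, has several promoters that lie close together. Promoters of a gene can be reached by the same distal enhancers or by different ones, and a capture experiment with a probe on each promoter records the contacts of each separately.

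The 749 promoters had 18250 listed contacts, each with a distal bin of 2 kb, with 11742 fetal and 11191 adult calls. A contact was called where the authors' score was above 0, and the lowest such score was 1.3 in the first batch and 2 in the second. In the first batch the median called contact rested on 11 fetal or 12 adult counts, and in the second on 28 in either population. Promoters had between 1 and 134 listed contacts, with a median of 17. The promoters of Sfi1, a centrosome gene, held 10.5% of the fetal and 10.1% of the adult counts of the first batch in 85 contacts. Of 9 stem and progenitor markers, 8 had captured promoters, with a summed FPKM of 193 in fetal and 306 in adult cells. The sums were 47.6 and 8.95 for 4 erythroid markers, 20.6 and 158 for 2 megakaryocyte markers, and 22.9 and 2.05 for 5 macrophage markers. A list of 9 markers taken as absent by the sort, which also held the pan-leukocyte gene Ptprc, had 2 captured genes. Of these, Flt3 read 6.20 in fetal and 3.81 in adult cells and Itgam 1.16 and 0.412, a sum of 7.36 and 4.22. Hepatocyte markers were not analysed here.

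The promoters of a gene lay close together in the first batch. Their fragments were a median of 5.13 kb apart, middle to middle (95% interval 3.88 to 6.79 kb), and 144 of 426 pairs were under 2 kb apart. In 54 pairs the fragments adjoined, so that a single DpnII site separated them. Close fragments can lie around the same start site, and how many pairs hold separate start sites was not tested. The widest pair belonged to Celf2, an RNA-binding splicing regulator, at 359 kb. The median was 44.6 kb in the second batch (16.0 to 73.2 kb), and Oxr1, an oxidation resistance gene, reached 383 kb.

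The RefSeq promoter windows (build GRCm38.p6, 250 bases before to 50 after a start) show what separates such fragments. The table's own coordinates are on mm9 per the submitters' processing notes. A window was assigned to a fragment where a DpnII site in it fell on the fragment's end after the local shift between the builds, which 145 of 749 promoters met. The recognition site GATC, which reads the same on both strands, occurs in 48.0% of the 32851 windows of this length in the table. In the windows printed here, capitals mark the GATC at the end of the captured fragment, all 5′ to 3′ along the gene. The closest pair of the first batch is Ewsr1, the gene of an RNA-binding protein, with fragments 0.213 kb apart middle to middle. Both of its fragments matched the same window and thus the same start site, so they are not shown to be separate promoters. The window (chr11:5099047-5099346, minus strand) is printed because the site in capitals is all that separates the fragments:
Ewsr1 and Ewsr1_1: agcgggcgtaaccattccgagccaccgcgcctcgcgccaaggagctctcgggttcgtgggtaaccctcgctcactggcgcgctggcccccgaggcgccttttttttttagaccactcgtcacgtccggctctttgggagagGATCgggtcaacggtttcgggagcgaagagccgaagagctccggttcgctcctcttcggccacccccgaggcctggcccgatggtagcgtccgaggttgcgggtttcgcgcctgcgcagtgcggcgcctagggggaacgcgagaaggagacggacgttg
The fragment at the lower coordinate, Ewsr1_1 (mm9 chr11:4998997-4999206), holds the start site and had 49 listed contacts, 27 called in fetal and 34 in adult cells. The adjoining fragment Ewsr1 (chr11:4999207-4999422) had 12, with 7 fetal and 5 adult calls. The fragments are 210 and 216 bases long.

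The next windows belong to pairs whose promoters had unlike contacts. Srgn encodes serglycin, the proteoglycan of blood cell granules, and its pair was among those with no bin in common. Dab2 encodes an endocytic adaptor protein:
Srgn_1 (chr10:62507708-62508007, minus strand): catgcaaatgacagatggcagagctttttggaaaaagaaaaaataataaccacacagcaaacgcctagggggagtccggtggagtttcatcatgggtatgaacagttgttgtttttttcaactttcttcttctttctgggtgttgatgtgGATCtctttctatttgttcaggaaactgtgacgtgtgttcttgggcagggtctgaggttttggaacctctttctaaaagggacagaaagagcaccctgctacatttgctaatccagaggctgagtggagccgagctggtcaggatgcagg
Srgn (chr10:62527396-62527695, minus strand): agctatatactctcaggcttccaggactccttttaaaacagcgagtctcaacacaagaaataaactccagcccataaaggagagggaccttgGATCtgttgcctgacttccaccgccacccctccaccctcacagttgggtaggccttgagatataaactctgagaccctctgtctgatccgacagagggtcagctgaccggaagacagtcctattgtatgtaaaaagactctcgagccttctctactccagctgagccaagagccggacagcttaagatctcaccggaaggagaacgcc
Dab2 (chr15:6299539-6299838, plus strand): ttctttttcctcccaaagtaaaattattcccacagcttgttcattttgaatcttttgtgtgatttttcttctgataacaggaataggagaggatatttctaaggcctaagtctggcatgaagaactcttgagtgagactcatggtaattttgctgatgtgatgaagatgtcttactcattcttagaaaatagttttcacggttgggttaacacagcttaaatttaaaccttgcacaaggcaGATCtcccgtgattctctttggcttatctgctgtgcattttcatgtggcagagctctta
Dab2_2 (chr15:6386498-6386797, plus strand): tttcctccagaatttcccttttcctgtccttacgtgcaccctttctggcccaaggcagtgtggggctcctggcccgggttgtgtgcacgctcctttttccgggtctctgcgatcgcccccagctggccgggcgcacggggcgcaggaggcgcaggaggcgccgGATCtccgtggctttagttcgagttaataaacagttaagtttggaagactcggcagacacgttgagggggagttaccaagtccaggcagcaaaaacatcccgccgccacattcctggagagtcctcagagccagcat
The start sites of both Srgn windows lie just outside the captured fragment, on the other side of the site in capitals, and both Dab2 start sites lie inside theirs. Dab2_2 is rich in the dinucleotide CG, with an observed over expected ratio of 0.72, and had 28 listed contacts. Dab2 has a ratio of 0.188 and had 2. This order was not general. Of 10 genes with a window for 2 promoters, the window richer in CG had more contacts in 3 and fewer in 7. These include windows of Dysf, Mdfi, Srgn, Tsen34 and Tspan4 whose start site lies outside the captured fragment. Among 109 promoters whose start site lay inside the fragment, the 70 with a ratio of at least 0.6 had a median of 18 listed contacts and the other 39 a median of 15.

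How far the promoters of a gene shared their distal bins depended on their spacing. The share used here is the percent of the calls of both promoters that the other promoter also had, over pairs with at least 5 calls at each. In the first batch its median was 25.9% in fetal cells (22.2 to 28.3%, 222 pairs) and 30.4% in adult cells (25 to 33.3%, 217 pairs). Pairs under 2 kb apart shared a median of 31.7% in fetal and 37.5% in adult cells, pairs 2 to 10 kb apart 26.7% and 28.6%, and pairs 10 to 50 kb apart 20.3% and 22.7%. Pairs 50 to 500 kb apart shared 9.09% and 8.70%, and 10 of 25 such fetal pairs had no called bin in common. Second-batch medians over all pairs were 22.2% of 15 fetal pairs and 22.0% of 16 adult pairs, with wide intervals (6.25 to 48.3% in fetal cells). Counting bins within 5 kb of each other as shared raised the first batch to 50% in fetal and 53.8% in adult cells, and taking only promoters at least 10 kb apart lowered it to 17.0% and 16.9%.

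The order of same-gene and different-gene pairs at matched spacing was not the same in both batches. In the first batch, different genes 2 to 10 kb apart had a median share of 36.4% in fetal cells (30 to 45.5%, 23 pairs) and 38.2% in adult cells, above the 26.7% and 28.6% of promoters of the same gene, with overlapping intervals. At 10 to 50 kb the medians were 21.2% and 23.8% for different genes, within the intervals of the same-gene pairs. At 50 to 500 kb they were 6.06% and 6.43%. Same-gene pairs of that class were closer together, at a median of 82.3 kb against 268 kb in fetal cells. Neighbouring promoters thus had overlapping contact lists whether or not they belonged to the same gene. Second-batch pairs 2 to 10 kb apart had the opposite order, with 46.8% in fetal (4 pairs) and 53.3% in adult cells (5 pairs) for the same gene, and 32.7% (11 pairs) and 32.3% (13 pairs) for different genes. At 10 to 50 kb the second-batch medians were 26.9% and 13.3% for the same gene (4 and 5 pairs), and 26.6% and 25.2% for different genes. The shares rest on lists of unequal length. Measured as a percent of the shorter list, the medians at 2 to 10 kb were 42.9% for the same gene and 50% for different genes in fetal cells, and 50% and 54.2% in adult cells, with overlapping intervals. At 10 to 50 kb they were 34.3% and 33.3% in fetal and 38.5% and 38.1% in adult cells. These shorter-list values are of the first batch.

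**Figure D1:**
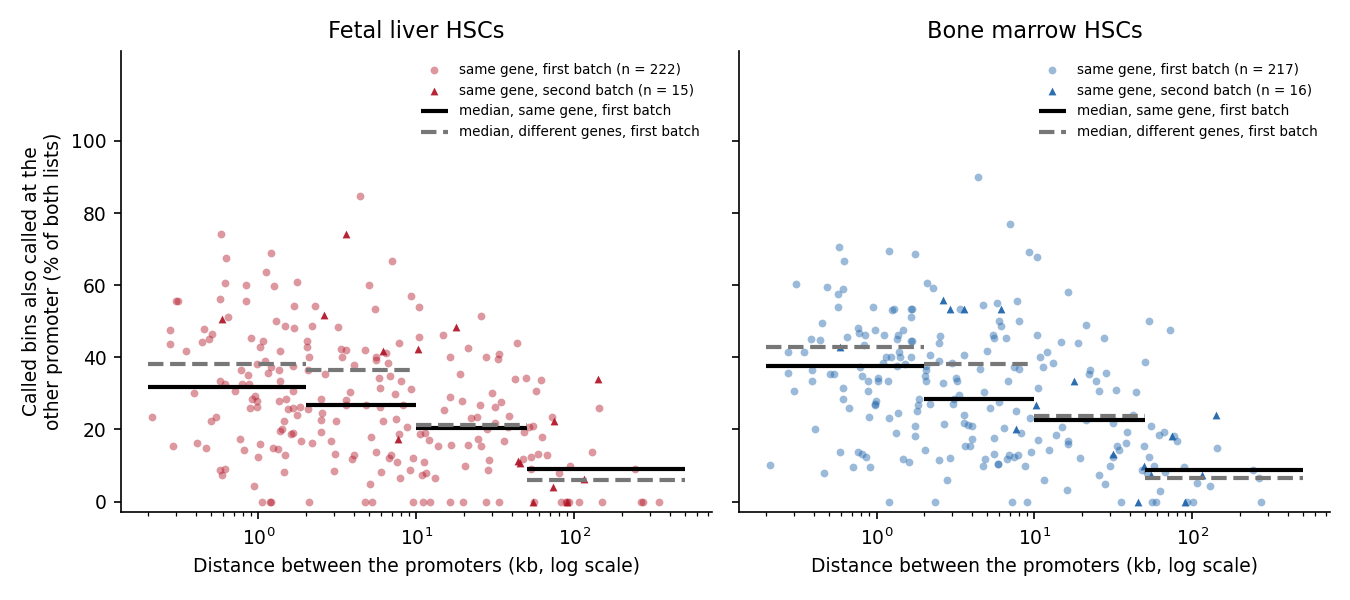
Share of called bins that the promoters of a pair have in common (percent of both lists) against the distance between the promoters (kb, log scale), in fetal (left) and adult (right) HSCs. Each point is a pair with at least 5 calls at both promoters; black and dashed grey lines are first-batch medians per spacing class for the same and for different genes, and the black line falls from 31.7% to 9.09% in fetal cells.

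The contact list of a promoter was then set beside itself in the other population and beside its partner in the same population. Over 185 first-batch pairs with at least 5 calls in each list, a promoter shared a median of 36.8% of its calls with itself across populations and 28.9% with its partner within a population. The difference per pair was 5.62 percentage points (3.50 to 7.47), and the own promoter was higher in 137 pairs and lower in 47. It was 2.02 points for pairs under 2 kb apart (-0.12 to 3.91), 5.83 at 2 to 10 kb, 6.64 at 10 to 50 kb and 12.6 at 50 to 500 kb (11.1 to 19.4, 20 pairs). The second-batch difference was 20.6 points (3.18 to 30.3, 13 pairs). This measure is lowered by lists of unequal length, which partners often have. As a percent of the shorter list, a measure chosen after the data had been seen, the first-batch difference was -3.57 points (-5.27 to -1.16), and it was -7.28 points (-11 to -4.70) under 2 kb. At 50 to 500 kb it was 15.0 points (7.14 to 18.6), and in the second batch 10.8 points (-13.9 to 31.0). For first-batch pairs over 50 kb apart, the same promoter in the other population was therefore closer than the other promoter of the gene by both measures, and for close pairs the order turned with the measure.

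**Figure D2:**
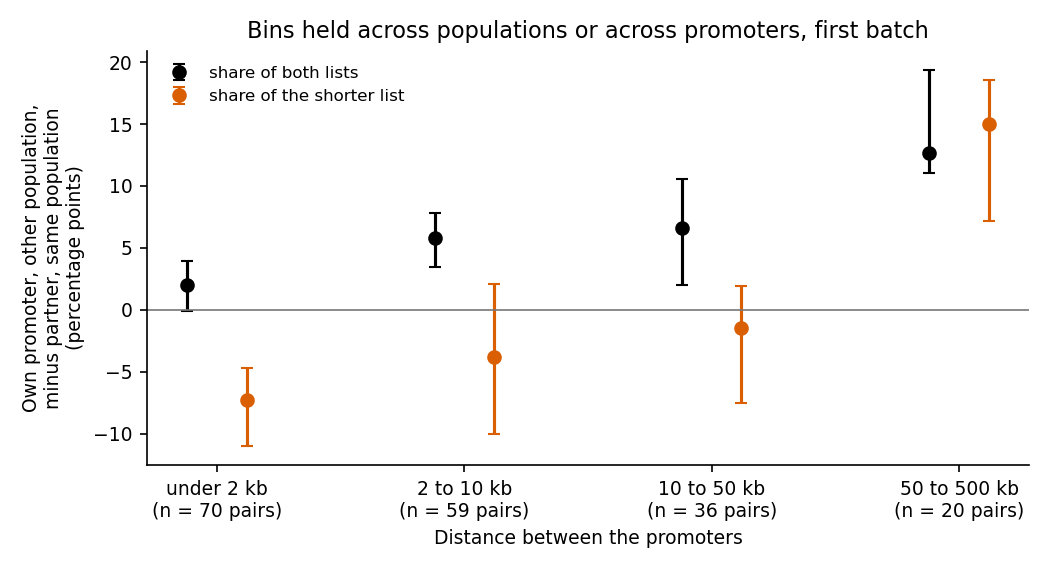
Median difference between the share of bins a promoter had in common with itself in the other population and with its partner in the same population, in percentage points, by promoter distance in the first batch; bars are exact 95% intervals over pairs. The black medians (percent of both lists) lie above 0 in every class, the orange medians (percent of the shorter list) lie below 0 up to 50 kb, and both are over 12 points at 50 to 500 kb.

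In the first batch, partners shared 0.83 percentage points more within a population than across populations (0 to 2.15, 185 pairs). The difference was -1.56 points for its pairs 50 to 500 kb apart (-5.11 to 0, 20 pairs) and -1.93 points in the second batch (-7.77 to 1.94, 13 pairs).

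Genes with 3 promoters show how often a bin was reached from all of them. The 52 such genes of the first batch had 2687 bins, of which 76.7% were listed for a single promoter, 16.2% for 2 and 7.07% for all 3. In 31 of the 52 genes at least 1 bin was listed for all 3 promoters. Stk11, which encodes the kinase LKB1, led with 40 of 92 bins (43.5%), over promoters spanning 10.4 kb. Zfp62, a zinc finger gene, had 18 of 65. Meis1, a homeobox regulator of HSCs, had 5 of 44 bins in common, all between mm9 chr11:18770001 and chr11:18782001, a cluster 131 to 149 kb from its promoters. That cluster held 2 bins with the active enhancer mark in fetal and 3 in adult cells. Its bin chr11:18774001-18776001 had 53 fetal and 65 adult counts from Meis1_1, 16 and 12 from Meis1 and 14 and 22 from Meis1_2. Hlf, a PAR bZIP factor of HSCs, had 8 of 46 bins listed for all 3 promoters, and Igf2 had 1 of 90. No bin was listed for all 3 promoters of Adam12, Akap13 or Dab2. These numbers and the 7.07% are limited by the promoter with the shortest list. That list held 52 bins for Stk11, 38 for Zfp62, 17 for Hlf, 7 for Meis1 and 5 for Igf2. It held 15 for Adam12, 11 for Akap13 and 2 for Dab2.

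Among pairs at least 10 kb apart with at least 10 listed contacts each (65 in the first batch and 8 in the second), the share of listed bins ran from 0 upwards with a median of 26.7% and 29.0%. Stk11_1 and Stk11_2, 10.4 kb apart, shared 45 bins, 67.2% of the 67 of the former and 69.2% of the 65 of the latter. Ifi47 and Ifi47_1, promoters of an interferon-induced GTPase 10.4 kb apart, shared 24 bins, 53.3% of 45 and 63.2% of 38. Prr5l_1 and Prr5l, of an mTORC2-binding protein, shared 14, which is 82.4% of 17 and 42.4% of 33. At the other end no bin was shared by the Srgn pair (19.6 kb, 13 and 10 contacts), by Akap13_1 and Akap13 (92.2 kb, 23 and 11 contacts, an A-kinase anchor protein) or by Adam12 and Adam12_2 (271 kb, 39 and 15 contacts, a metalloprotease). Among the high second-batch shares was that of Srebf1, the sterol regulator (11 bins, 45.8% of 24 at both promoters). Rgl1, an activator of Ral GTPases, shared 14 bins over 141 kb, 28.6% of 49 and 46.7% of 30. Tsc22d1_1 and Tsc22d1 shared none of 10 and 30 over 89.6 kb. Arvcf, a catenin gene, shared 5 bins (11.4% of 44 and 19.2% of 26) and Epb4.1l1, a gene of the band 4.1 family, 4 (22.2% of 18 and 14.3% of 28). Spacing alone did not order these pairs, since Rgl1 was wider than Tsc22d1.

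Promoters of a gene differed widely in how many contacts were called. Reads captured per fragment outside the listed contacts are not given. The part of capture yield in these numbers was therefore not tested. Over 426 first-batch pairs, the median absolute log2 ratio of call numbers (1 added to each) was 1.28 in fetal cells (1.12 to 1.42) and 1.22 in adult cells (1.03 to 1.42). Numbers differed at least 4-fold in 31.5% of pairs in fetal and 29.1% in adult cells. Under 2 kb this share was 23.6% and 22.9%, against 33.3% in both populations for 9 pairs of different genes. At 2 to 10 kb it was 34.6% and 31.5%, against 18.4% and 21.1% for 38 pairs of different genes. At 10 to 50 kb it was 38.0% and 35.2%, against 33.2% and 32% for different genes. At 50 to 500 kb it was 31.9% and 27.7%, against 37.1% and 34.1%. The second-batch median log2 ratio was 0.86 in fetal and 1 in adult cells. First-batch pairs of different genes 10 to 50 kb apart had a median of 1.38 in fetal cells, and promoters of the same gene at that distance 1.42. The adult medians of that class were 1.19 (1 to 1.42) and 1.58 (1.25 to 1.81). The promoter on the longer fragment had more calls in 52.6% of first-batch pairs in fetal cells (47.6 to 57.5%) and in 26.9% of 26 untied second-batch pairs (11.6 to 47.8%). The upstream promoter had more in 50.9% (45.5 to 56.3%). Where the fetal FPKM of the first-batch transcripts differed at least 1.5-fold, the promoter with the higher value had more calls in 48.9% of 88 untied pairs (38.1 to 59.8%). How reads were divided among the transcripts of a gene is not given, so FPKM may not measure the output of each promoter.

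Of a list of 40 blood genes, 16 had at least 2 captured promoters. Their 26 pairs had a median absolute log2 ratio of call numbers of 1.13 in fetal and 1.58 in adult cells. Of these pairs, 9 and 10 differed at least 4-fold, beside 134 and 124 of all 426 first-batch pairs and 6 and 6 of all 28 second-batch pairs. Over the 19 pairs with at least 5 listed contacts at each promoter, the median share of listed bins was 26.7%, beside 27.7% over all 319 such pairs of both batches.

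Several of these genes had a promoter with many calls beside a promoter with few, and the part of capture yield was not tested here either. Runx1 (chr16:92825342-92826608 in mm9) had 44 fetal and 38 adult calls. Runx1_1, 128 kb away, had 0 and 1. The single contact of Runx1_1 fell on the bin chr16:92824001-92826001, which overlaps the other Runx1 promoter, with 20 fetal and 37 adult counts. Runx3, another RUNX factor, had 38 fetal and 52 adult calls, and Runx3_1 at 31.5 kb had 2 and 2. Its adult and fetal calls included the bin of the first Runx3 promoter, with 86 fetal and 93 adult counts. Ikzf1, the Ikaros lymphoid regulator, had 41 and 37 calls on a fragment adjoining that of Ikzf1_1, with 4 and 6. All 8 listed bins of Ikzf1_1 were among the 55 of Ikzf1. Meis1_1 had 30 and 31 calls, and the adjoining Meis1 had 6 and 6.

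Myc_1 and Myc, of the growth regulator c-Myc, had 37 and 23 fetal calls and 33 and 23 adult calls, and shared 19 bins (35.8% of 53 and 55.9% of 34). Mecom, which encodes the HSC factor EVI1, had 28 and 31 calls, and Mecom_1 at 241 kb had 16 and 15, with 8 bins in common (15.7% of 51 and 29.6% of 27). Cbfa2t3, a corepressor gene, had 20 and 15 calls and Cbfa2t3_1 had 41 and 34. The DNA methyltransferase gene Dnmt3a had 1 and 4 calls at Dnmt3a, 21 and 17 at Dnmt3a_2 and 12 and 12 at Dnmt3a_1. Lmo2, an adaptor of blood transcription factors, had 5 and 4 calls, and Lmo2_1 had 4 in fetal and 12 in adult cells. Notch1 had 1 and 0, and Notch1_1 had 6 and 11. Gata1, the erythroid factor, had 3 and 3 calls, and Gata1_1 had 1 and 0. Nfe2, an erythroid and megakaryocyte bZIP factor, had 5 and 3 calls, and Nfe2_2 had 4 and 7. No promoter of Sfpi1, whose current symbol is Spi1 and which encodes PU.1, exceeded 5 fetal or 8 adult calls. Tcf4, an E-protein gene, had 2 and 1, against 10 and 10 at Tcf4_1. Hlf_1 had 21 and 27 calls, Hlf had 16 and 10, and Hlf_2 had 12 and 8.

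**Figure D3:**
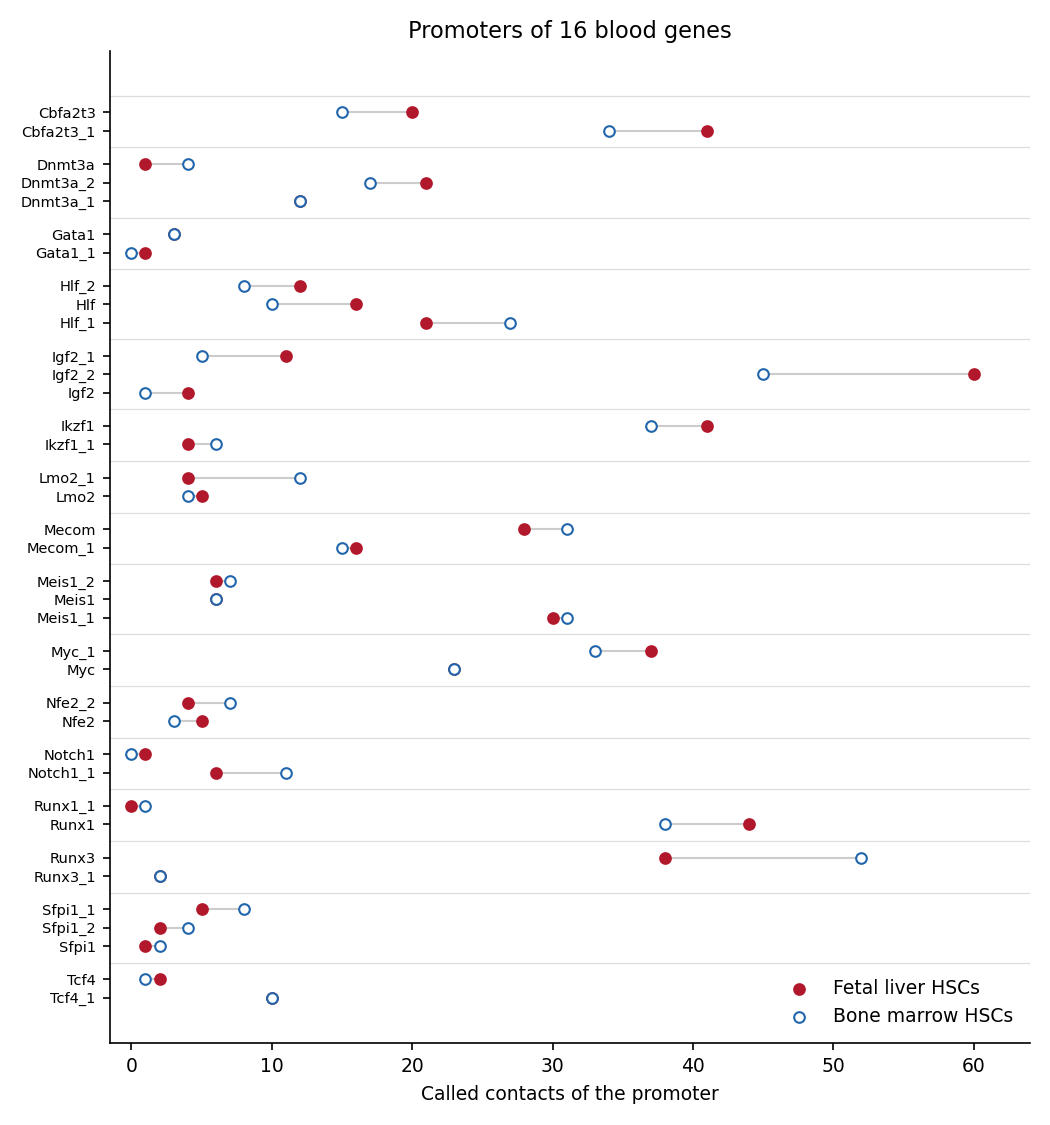
Called contacts per promoter (x axis) of the 16 listed blood genes with at least 2 captured promoters, in order along the chromosome within a gene; filled red points are fetal and open blue points adult HSCs, and equal values overlap. Runx1, Runx3, Ikzf1, Igf2 and Meis1 each have a promoter with 30 or more calls beside one with 6 or fewer.

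The balance of fetal and adult counts at a promoter was taken as log2((fetal + 1)/(adult + 1)) of the counts summed over its listed contacts, for promoters with at least 5. A ratio of at least 0.5 towards fetal cells was met by 54 of 576 first-batch promoters (9.38%), against 8.81% of all 1635 promoters of the batch. Towards adult cells it was met by 23 (3.99%), against 4.4% of all. In the second batch, 0 of 45 promoters, with a 95% interval up to 7.87%, met it towards fetal cells against 7.95% of all 1408, and 4 towards adult cells against 1.49%. The first-batch shares were near those of all promoters. Libraries were not scaled and ratios were not centred, so the cut was taken from 0. The medians over all promoters were 0.09 for the first batch and 0.18 for the second. The cut therefore lay nearer the median towards fetal than towards adult cells, more so in the second batch.

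Ratios of the promoters of a gene were weakly alike in the first batch. Spearman's rho, with each pair entered in both orders, was 0.243 over 298 pairs, and the median absolute difference of the log2 ratios was 0.21 (0.16 to 0.27). Over 21 second-batch pairs rho was 0.579 and the difference 0.10 (0.03 to 0.27). By spacing, rho was 0.334 under 2 kb, 0.344 at 2 to 10 kb, 0.159 at 10 to 50 kb and 0.047 at 50 to 500 kb in the first batch. Different genes had 0.449 at 2 to 10 kb (30 pairs) and 0.152 at 10 to 50 kb (175 pairs). The points of a pair share bins, libraries and depth, and without the bins listed for both promoters rho fell from 0.243 to 0.129 and the difference was 0.32. The ratios lay at least 0.5 on opposite sides of 0 in 3 of the 298 first-batch pairs, 2 of them among 39 pairs 50 to 500 kb apart. For different genes this was so in 14 of 1338 pairs at 50 to 500 kb and in 0 of 175 at 10 to 50 kb. Such pairs were thus rare whether or not the promoters belonged to the same gene. Aim2_2, of a sensor of cytosolic DNA, had 0.75 with 36 fetal and 21 adult counts, while Aim2 had -1.08 (24 and 52) and Aim2_1 -0.74 (17 and 29). Jarid2_1, of a subunit of Polycomb repressive complex 2, had -1.42 (11 and 31) and Jarid2 0.72 (27 and 16). These promoters had 5 to 8 listed contacts.

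**Figure D4:**
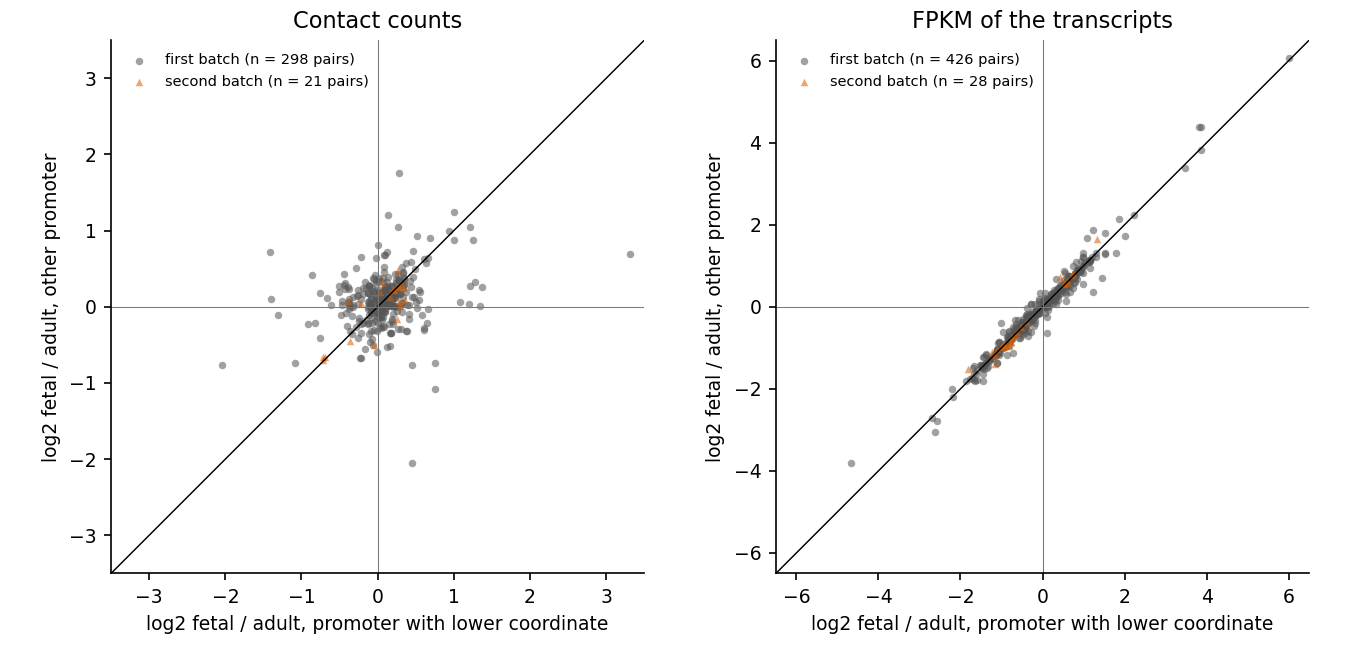
log2 ratio of fetal to adult values at the promoter with the lower coordinate (x axis) and at the other promoter (y axis) of each pair; left, summed contact counts of pairs with at least 5 listed contacts each; right, FPKM of the transcripts of all pairs, with 1 added to each value. The FPKM ratios lie along the diagonal (rho 0.984 in the first batch), the count ratios scatter around 0 (rho 0.243).

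Among wide pairs with at least 10 listed contacts, Ifi47 differed most. Ifi47 summed 4288 fetal and 1872 adult counts (log2 ratio 1.20), and Ifi47_1 340 and 331 (0.04). A single contact, with the bin chr11:48734001-48736001 at 155 kb, held 3614 fetal and 1237 adult counts. With contacts of 1000 counts or more left out, the difference between the promoters fell from 1.16 to 0.05. Srgn had 100 fetal and 43 adult counts (1.20) and Srgn_1 263 and 239 (0.14). All 10 contacts of Srgn were called in fetal cells and none in adult cells. Of its contacts, 9 had 7 to 11 fetal counts, and the tenth had 29 fetal and 16 adult counts. Srgn_1 had 10 fetal and 6 adult calls, and 8 of its 13 listed contacts lay 33.8 to 49.8 kb away, beyond the Srgn promoter. Of these calls, 5 fetal and 3 adult ones fell in active enhancer bins, and none of those of Srgn did. The FPKM of the paired transcripts was alike, 85.6 and 87.7 in fetal and 186 and 189 in adult cells. Lgmn encodes legumain, a lysosomal protease. Lgmn_1 had 40 fetal and 68 adult counts (-0.75), and Lgmn had 879 and 773 (0.19), with 12 and 96 listed contacts. Lgmn read 10.9 FPKM in fetal and 0.147 in adult cells. The 5 macrophage markers with captured promoters were all higher in fetal cells, with a summed 22.9 against 2.05 FPKM. Dab2 transcripts read 1.5 to 2.45 FPKM in fetal cells and 0 in adult cells at all 3 promoters. The part of macrophage RNA in the Lgmn and Dab2 values was not tested. In the second batch the largest differences were 0.46 for Osbpl3 (ratios -0.04 and -0.50), an oxysterol-binding protein gene, 0.28 for Tsc22d1 and -0.21 for Rgl1.

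The promoters of Igf2 were unlike in their contacts and alike in the direction of FPKM. Its transcripts read 21.7, 20.6 and 36.4 FPKM in fetal cells and 0.561, 0.536 and 0.798 in adult cells at Igf2_1, Igf2_2 and Igf2. Igf2_2 (chr7:149846874-149847233) had 60 fetal and 45 adult calls. Igf2, whose fragment is 0.597 kb away, had 4 and 1, and Igf2_1 at 2.90 kb had 11 and 5. The log2 count ratios were 0.27 at Igf2_2, 1.04 at Igf2 (34 and 16 counts) and 1.21 at Igf2_1 (152 and 65 counts). Of the 16 bins of Igf2_1, 10 were among the 83 of Igf2_2 (62.5% and 12%).

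**Figure D5:**
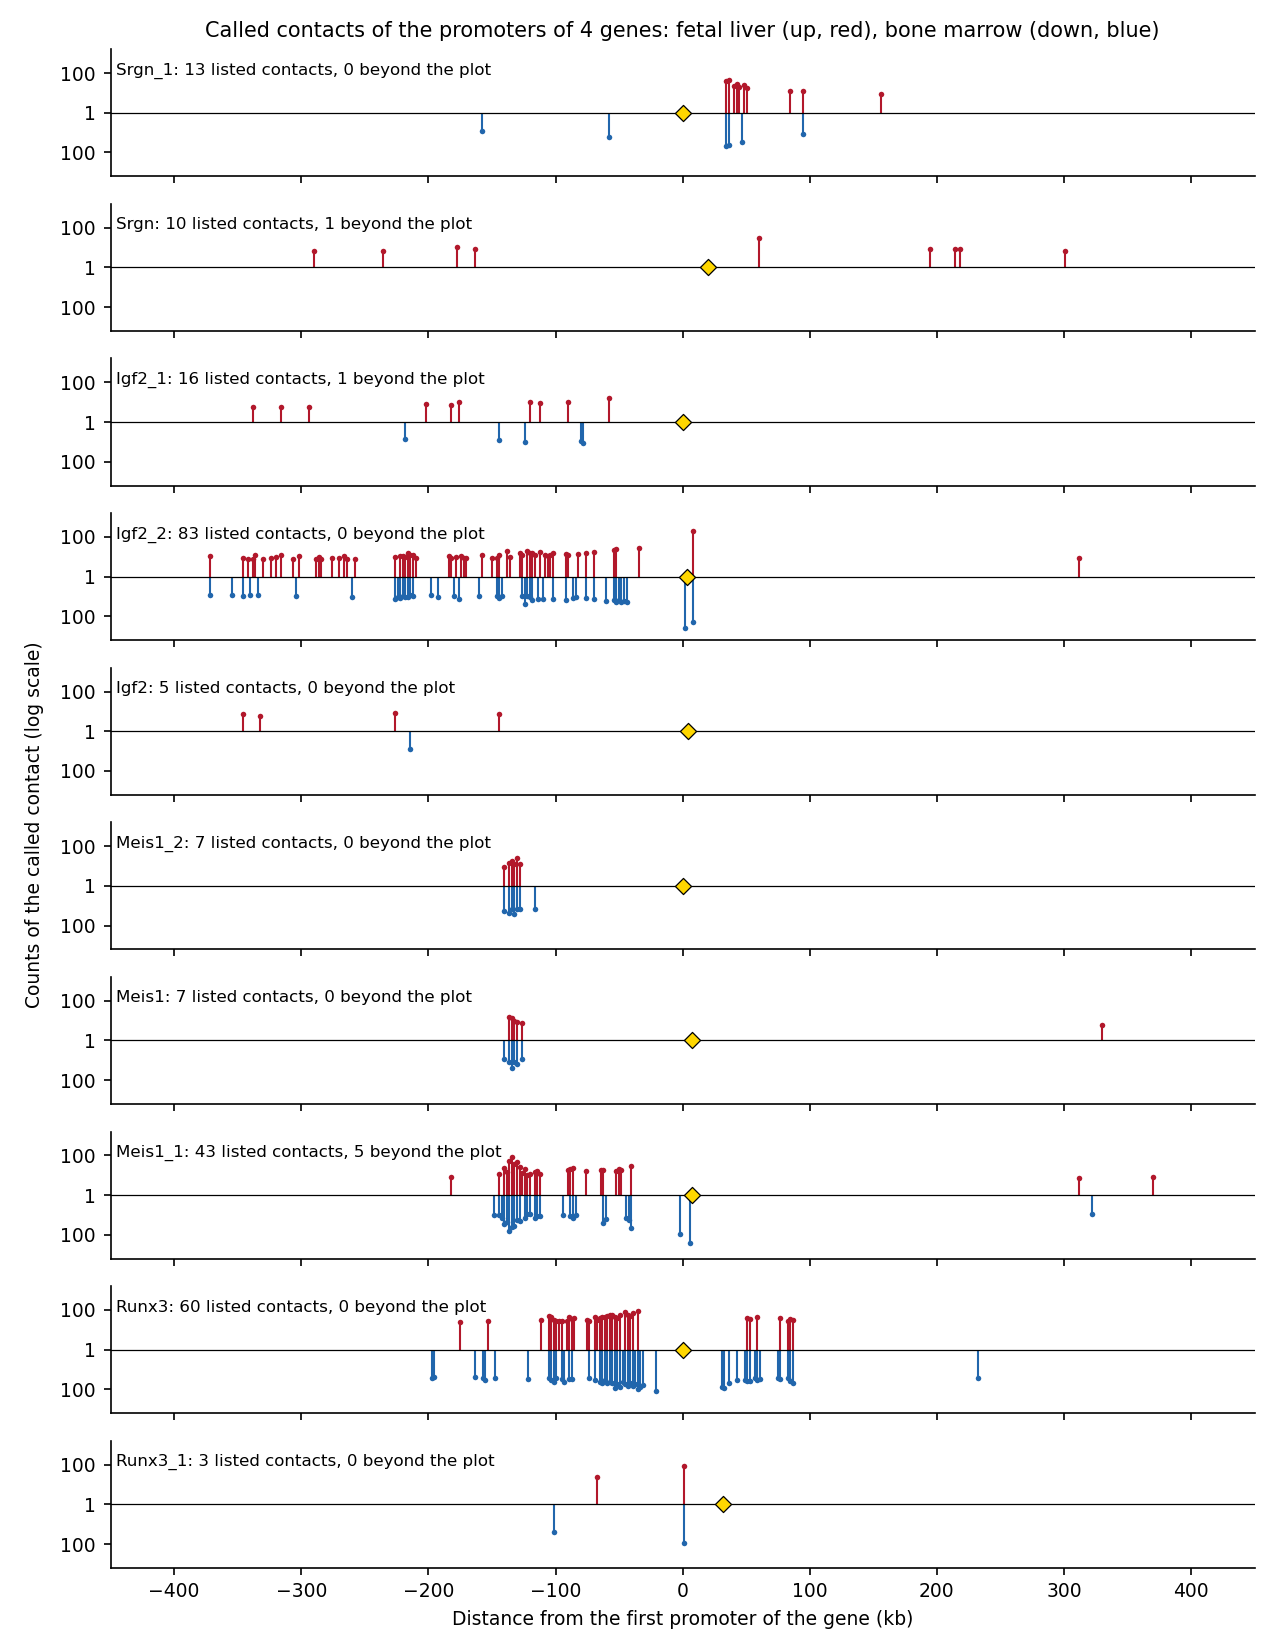
Called contacts of each promoter of Srgn, Igf2, Meis1 and Runx3 by distance from the first promoter of the gene (x axis, kb), with counts on a log scale, fetal upwards in red and adult downwards in blue; diamonds mark the promoter itself. Srgn has no adult call, the 3 Meis1 promoters share a cluster near -140 kb, and Igf2_2 and Runx3 have many contacts where their partners have few.

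A bin listed for both promoters of a pair can be called in the same or in different populations at each. In the first batch 3030 such cases were found, and in 745 of them the contact was called in both populations at both promoters. In 1186 it was called in a single population at each promoter. The population was then the same in 668, or 56.3% (53.4 to 59.2%), and opposite in 518. By spacing this share was 61.0% under 2 kb (56.4 to 65.5%) and 40.6% at 50 to 500 kb (30.7 to 51.1%). For second-batch pairs it was 46.0% of 63 (33.4 to 59.1%). Different genes at 10 to 50 kb had 54.4% (first batch) and 60.9% (second). The count ratios of such a bin at the promoters of a gene had a rho of 0.069 in the first batch. A fetal-specific or adult-specific call at a bin at the first-batch promoters was matched at the partner in 668 cases and opposed in 518.

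Bins listed for 2 or more promoters of a gene differed from bins listed for a single promoter. In the first batch 41.4% of their 5490 contacts were called in both populations (40.1 to 42.8%), against 17.5% of 11631 (16.8 to 18.2%). The second-batch shares were 42.8% and 29.6%. Of the fetal calls of the first batch, 63.3% and 45.5% lay in bins with open chromatin (ATAC), and of the adult calls 61.4% and 47.5%. The active promoter mark was present in 20.3% and 11% of the fetal calls. Scores moved with this, with medians of 2.47 and 1.89 in fetal cells, and the part of the score in the other differences was not tested. Within 50 kb of the promoter the fetal open-chromatin shares were 64.9% and 63.2%, and over 200 kb away they were 65.8% and 44.8%.

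Active enhancer contacts made up 13.3% of the fetal and 13.9% of the adult calls of these promoters in the first batch. They made up 12.6% and 12.9% at the remaining captured promoters. Second-batch shares were 15.3% of the fetal and 20.1% of the adult calls, against 12.9% and 13.7%. Of the 148 adult enhancer contacts behind the second-batch share, Runx3 alone held 33. An enhancer bin called for a gene was reached from 2 or more of its promoters in 19.9% of 1202 cases in fetal (17.7 to 22.3%) and 19.0% of 1201 in adult cells (16.8 to 21.3%). Bins without the mark reached 14.4% and 15.7%. In the second batch the enhancer shares were 16.8% and 8.82%, with 13.2% and 11.4% for bins without the mark, and all 4 intervals overlapped. The first-batch order turned with distance. Within 50 kb the mark lay in 17.7% of fetal calls in bins listed for 2 or more promoters and in 20.8% of the others. In adult cells these shares were 17.3% and 23.4%, and the intervals overlapped. Over 200 kb away they were 17.8% and 9.99% in fetal and 20.7% and 11.7% in adult cells. Of the 322 first-batch genes, 131 had an enhancer contact at every promoter in fetal cells, 110 at some and 81 at none. In adult cells the numbers were 113, 133 and 76.

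The next pairs were picked for the largest difference in enhancer contacts, so an uneven split between their promoters was fixed by the choice. Runx3 had 22 fetal and 33 adult enhancer contacts and Runx3_1 had 1 and 1. Hhex, a homeobox gene of early blood progenitors, had 19 and 16 at Hhex and 5 and 1 at Hhex_1, 3.78 kb away, although 10 of the 12 listed bins of Hhex_1 were among the 47 of Hhex. Rreb1, a zinc finger factor gene, had 19 and 20, against 6 and 2 at Rreb1_1. Runx1 had 14 and 14, against 0 and 0. In the second batch Tsc22d1 had 11 and 11, against 0 and 0 at Tsc22d1_1, and Tnfaip8_1, of a regulator of cell survival, had 11 and 12, against 3 and 2 at Tnfaip8. The promoters with more enhancer contacts in these pairs also had more calls of any kind, for instance 38 and 52 against 2 and 2 at Runx3.

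FPKM values are deposited per transcript and hardly separated the promoters of a gene. They were within 2-fold, after 1 was added, in 402 of 426 first-batch pairs in each population (94.4%, 91.7 to 96.4%) and in 26 of 28 second-batch pairs. The log2 ratio of fetal to adult FPKM differed by a median of 0.05 between the promoters (0.04 to 0.06, rho 0.984), against 0.48 between different genes under 50 kb apart (rho 0.358). The promoter with the higher FPKM was not the same in both populations in 41 first-batch and 5 second-batch pairs. How reads were divided among transcripts with common exons is not given in the sources used here. A 2-fold higher FPKM in fetal cells was found for 38 of 576 first-batch promoters (6.60%, against 5.26% of all promoters) and in adult cells for 98 (17.0%, against 13.1%). The second-batch numbers were 1 of 45 (2.22%, against 11.2%) and 10 of 45 (22.2%, against 16.3%). Promoters of the same gene enter these counts together. The largest first-batch difference of the ratios, 0.86, was at Clec4a2, a myeloid lectin gene. Dnmt3a_2 read 29.4 and 11.2 FPKM and Dnmt3a_1 11.8 and 4.52, with contact count ratios of 0.24 and 0.32.

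Contacts between the promoters of a gene were listed for a minority of first-batch pairs. At 10 to 50 kb the bin at either promoter was listed for the other in 34 of 108 pairs (31.5%, 22.9 to 41.1%), and for different genes in 116 of 250 (46.4%, 40.1 to 52.8%). At 50 to 500 kb the numbers were 21 of 47 (44.7%) and 720 of 1792 (40.2%). Among second-batch pairs they were 9 of 10 and 10 of 11 for the same gene, against 69.9% and 46.5% for different genes. The classes are not matched in spacing within their limits. Second-batch pairs 50 to 500 kb apart with at least 5 fetal calls at each promoter had a median spacing of 81.9 kb for the same gene and 225 kb for different genes. Runx1, Runx3, Cbfa2t3 and Tcf4 had the contact listed from both promoters, and the Mecom, Lmo2 and Srgn pairs from neither.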

How the data were processed

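Contacts of captured promoters in sorted fetal liver and adult bone marrow HSCs were read from the deposited table, in which the libraries of a population and batch are pooled. Reads were trimmed with Trim Galore 0.41, aligned with Bowtie2 2.2.2 and placed on mm9, per the submitters' processing notes, and the authors named the contact caller LiMACC. The deposited score is taken as the −log10 of a p-value from its range, and a score above 0 was taken as a call. The deposited counts are read counts per contact, with no scaling between populations. The deposited FPKM values are given per transcript, and other columns hold the authors' 0 or 1 marks for chromatin state and ATAC.

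Members and gene lists were chosen with earlier results of these data known. Bins of 2 kb were compared between promoters as exact positions. Ratios are log2 with a pseudocount of 1. Medians have exact order-statistic intervals and shares Clopper-Pearson intervals at 95%, for counting error only. No test was run, since the values have no replicates. Named pairs were those with the largest and smallest shares of listed bins and the largest count ratio differences (at least 10 kb apart, 10 listed contacts each, 3 per batch), the largest differences in enhancer contacts, and 16 genes of a list of 40. The rule naming 3 genes with most promoters was not used, as 53 tied at 3, and no gene reversed its FPKM order with at least 2-fold in both populations. Other genes were named after their values were seen. A result that this rule selected is not reported here. Marker lists were stem and progenitor, erythroid, megakaryocyte, macrophage, hepatocyte and lineage genes. RefSeq tables named 747 of 749 promoters, 56 by synonym, and held windows for 619. Alternatives changed the bin tolerance, calling threshold, distance, spacing, minimum calls, merging, pseudocounts, low FPKM values and the chromatin mark. Python 3.11.15, pandas 2.3.3, NumPy 2.4.6, SciPy 1.17.1 and matplotlib 3.10.9 were used, and the scripts were tested on simulated data.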

Additional observations from a re-analysis of the deposited data

Results flagged for a closer look

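Contacts with other chromosomes lay outside the comparisons of the report. The promoters of genes with at least 2 captured promoters had 237 such contacts at 99 promoters, 1.28% of all their listed contacts. Of these, 137 were called in both populations, 76 in fetal cells only and 24 in adult cells only. Sfi1 alone held 91. Without Sfi1, 146 remained, of which 52 were called in fetal cells only and 18 in adult cells only. Such contacts of the other captured promoters were not counted. Whether the share or the larger number of fetal-only calls is particular to these promoters was therefore not tested. Whether they are ligation background was not tested either.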

How the results depend on the processing

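No paired analysis was possible because each population has 1 pooled value per batch, so that neither a test nor a left-out library could be computed. Over 26 summary values and 96 alternatives, 76 stayed within the 95% interval of the value (or at the value where it has none), 19 moved further and 1 changed sign. The cause of these changes was not tested. The 76 are no measure of stability in the second batch, where intervals are wide. There the fetal share of bins rose from 22.2% to 44.4% with a tolerance of 5 kb. It still lay within its interval of 6.25 to 48.3%. The first-batch median share of bins was 50% in fetal and 53.8% in adult cells with a tolerance of 5 kb, 34.1% and 36.4% with a p 10 times smaller, 17.0% and 16.9% for promoters at least 10 kb apart, 21.3% and 23.5% with at least 3 calls, and 35.3% and 37.7% with at least 10 calls. The difference between own promoter and partner in the first batch was 7.54 points with the smaller p, 10.1 points at least 10 kb apart and -3.57 points on the shorter list, an alternative chosen after seeing the data. In the second batch it was 31.8 points with the tolerance of 5 kb. With called bins up to 5 kb apart merged, the log2 ratio of call numbers was 1 in both populations of the first batch and 0.71 in adult cells of the second. Without bins listed for both promoters, rho of the first-batch count ratios was 0.129 and their difference 0.32. The fetal first-batch share of enhancer bins reached from 2 or more promoters was 15.4% with the smaller p. The share of bins without the mark was not computed at that p. Of 246 alternatives for single pairs, 88 did so and 8 changed the sign of a difference of count ratios. Without bins listed for both promoters it was 0.57 for Prr5l_1 and Prr5l, 0.020 for Srebf1_1 and Srebf1, 0.13 for Tnfaip8_1 and Tnfaip8, 0.33 for Hlf_2 and Hlf, 1.36 for Meis1 and Meis1_1, and -0.18 for Sfpi1_1 and Sfpi1_2. With contacts over 20 kb only it was 0.093 for Srebf1_1 and Srebf1 and -0.032 for Cbfa2t3 and Cbfa2t3_1. Depth limits single contacts, since a median called contact of the first batch rests on 11 fetal or 12 adult counts.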
